A study of Mus musculus with 2 samples.

Results

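The immunity-related GTPases (IRG proteins) are a family of large GTPases that mouse cells make in response to interferon-gamma. The genes Irgm1, Irgm2, Igtp, Iigp1, Gm12250, Tgtp1 and Tgtp2 of this family, 7 in all, were followed here among 22180 genes measured by a probe set of their own. They were listed with earlier results of these data known, and their difference between the arrays is therefore a description that supports nothing by itself. Probe sets that name exactly 1 of these genes were found for 5 of the 7, 1 probe set each. Tgtp1 and Tgtp2, near-identical copies, shared 2 probe sets that name both and are given apart.

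The study measured RNA on 2 Affymetrix whole-transcript mouse arrays, each with spleen cells of Fx-/- mice. Fx encodes an enzyme that makes GDP-fucose, so such mice depend on supplied fucose for fucosylated glycans, and both groups carry the deletion. On 1 array, called on fucose, the cells came from fucose-treated mice, and on 1 array, called off fucose, from mice with no fucose treatment. The cells were freshly isolated by removing splenocytes that bound B220 or CD11b antibody and then selecting with CD11c beads, and the labels call them cDC1, conventional type 1 dendritic cells. The number of mice behind each array and their age and strain are not given in the sources used here. With 1 array per group there was no replicate check, no test and no error, and the number of arrays limits the precision.

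The labelled cell type was checked against markers. The cDC1 receptor gene Xcr1 had log2 intensities of 2.90 on fucose and 3.43 off fucose, Itgax, which encodes CD11c, 3.83 and 3.86, and Zbtb46, a dendritic cell factor, 2.84 and 2.98, where the array medians were 2.81 and 2.82. Other cDC1 markers were brighter, such as the lysosomal amidase gene Naaa at 5.97 and 8.36 and the factor gene Batf3 at 4.58 and 5.49, and the median of the 9 measured was 3.83 on fucose and 4.96 off fucose. T cell genes had a median over 11 genes of 9.79 on fucose and 9.29 off fucose. Probe sets respond differently, so these levels do not give the share of a cell type. The name cDC1-enriched splenocytes is that of the series title and is not shown by these levels. Which cells the Irg values come from was not tested. Xist had 8.26 on fucose and 2.82 off fucose and the Y-linked gene Uty 2.14 and 5.26, so the sex of the mice and the treatment cannot be told apart.

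IRG proteins are of a regulator or an effector kind. The regulators Irgm1, Irgm2 and Igtp (also named Irgm3) sit on the cell's own membranes and hold the effectors inactive. The effectors, among them Iigp1 (Irga6), Gm12250 (Irgb10) and the Tgtp proteins (Irgb6), gather on the vacuoles of intracellular parasites and bacteria such as Toxoplasma and Chlamydia and break them open. Their transcription is induced by interferon through gamma-activated sites (GAS) and through interferon-stimulated response elements (ISRE), which interferon regulatory factors such as IRF1 bind.

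The promoters are shown because interferon motifs are known in this family. RefSeq promoters, 250 bases before to 50 after the annotated start (build GRCm38.p6), were matched by symbol for 6 of the 7 genes, Iigp1 being the exception. The motifs searched on both strands were GAAA followed by any 2 bases and again GAAA for the ISRE core, and TTCNNNGAA for GAS, and a match is a description of letters, not a site shown to be used. Each line holds 64 bases from upstream of the start on the gene's strand, 5′ to 3′, with the motif letters in capitals. The lines were cut so that the ISRE core nearest to the start has the same place in each. Their distance from the start therefore differs, from positions -64 to -1 in Irgm1 to positions -117 to -54 in Tgtp1.
Irgm1 (chr11:48871421-48871484, minus strand): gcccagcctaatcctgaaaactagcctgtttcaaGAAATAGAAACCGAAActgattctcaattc
Irgm2 (chr11:58214873-58214936, plus strand): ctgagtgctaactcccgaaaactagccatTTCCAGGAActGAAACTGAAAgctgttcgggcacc
Igtp (chr11:58199482-58199545, plus strand): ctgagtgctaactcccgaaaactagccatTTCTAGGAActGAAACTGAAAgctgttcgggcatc
Gm12250 (chr11:58183757-58183820, plus strand): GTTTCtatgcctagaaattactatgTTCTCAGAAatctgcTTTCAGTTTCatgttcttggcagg
Tgtp1 (chr11:48992300-48992363, minus strand): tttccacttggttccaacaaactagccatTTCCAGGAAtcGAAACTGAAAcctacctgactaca
Tgtp2 (chr11:49064259-49064322, minus strand): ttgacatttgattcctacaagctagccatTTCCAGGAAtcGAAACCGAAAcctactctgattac

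All 6 promoters held an ISRE core, and 5 of the 6, all but Irgm1, also held a GAS match. Over all 32851 promoters of the same length, an ISRE core was found in 3.44%, a GAS match in 8.3% and both in 0.454%. In Irgm2, Igtp, Tgtp1 and Tgtp2 the GAS match lay just upstream of the ISRE core, with 2 bases between them. In Gm12250 the ISRE cores ran on the opposite strand, and the capitals at the start of its line are the end of the other of its 2 cores. Irgm1 held 2 ISRE cores that overlap.

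The promoters of Igtp and Irgm2, neighbouring genes on chromosome 11, were alike. Over 264 aligned bases of the whole promoters 93.6% were identical, and the lines above, placed by their ISRE cores, differ at 2 of 64 positions. Tgtp1 and Tgtp2 had 83.3% identity over 269 bases, and their lines, placed in the same way, differ at 15 positions. The 9 other pairs with at least 200 aligned bases had 67.8% to 77.0%, where only gaps at the ends were free. These too are promoters of the same family, and unrelated promoters were not aligned.

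**Figure D1:**
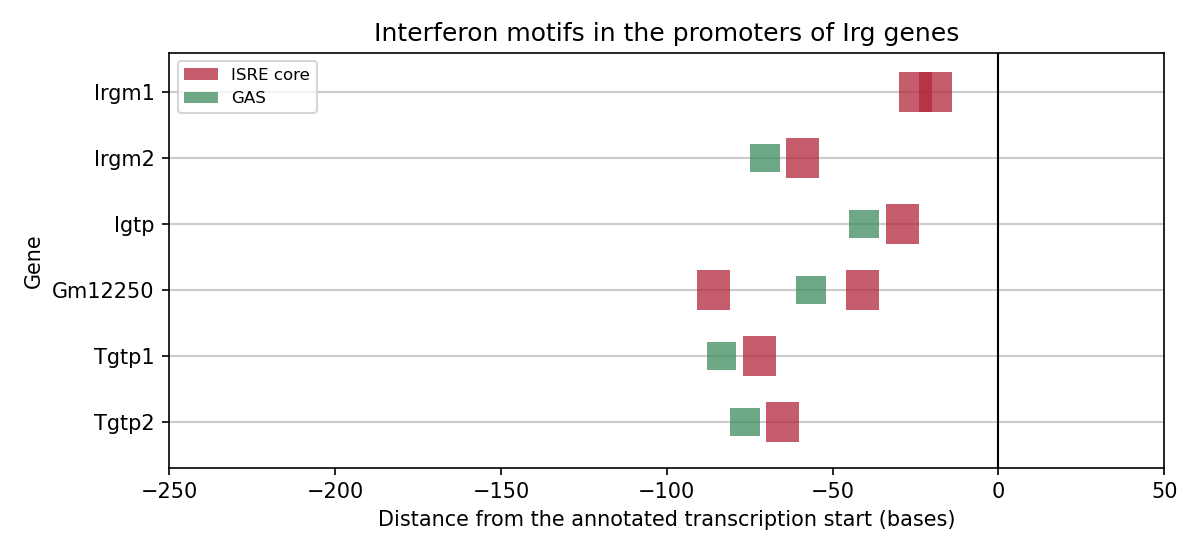
Position of ISRE core (red) and GAS (green) matches in the promoters of 6 Irg genes, with the distance from the annotated transcription start in bases on the horizontal axis and 1 line per gene. All matches lie between positions -91 and -15, and those of Irgm1 are nearest to the start.

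All 5 genes with a probe set of their own had lower values off fucose, and 3 of them, Irgm2, Gm12250 and Iigp1, were at least 2-fold lower. Differences are log2 intensity off fucose less that on fucose, so a negative value is lower off fucose. The median difference of the 5 was -1.12, beside -0.05 over the 11090 genes that passed an expression filter (a mean log2 intensity of 2.88 or more, which is the median over genes). All 5 passed this filter. Of the genes past the filter, 0.514% were at least 2-fold lower off fucose, 4.27% at least 1.5-fold lower and 56.5% lower at all. Since the genes were chosen from this contrast, nothing is read from these shares.

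The regulators differed among themselves. Irgm2 (probe set 17249990), a regulator found on Golgi membranes, measured 6.32 (log2) on fucose against 5.08 off fucose, which are intensities of 80.0 and 33.7. Its value was 2.37-fold lower off fucose, a log2 difference of -1.25. It ranked 27 from the lowest difference of the 11090 genes, and 7 of 1464 genes with a mean log2 intensity within 0.5 of its own had a difference as low, Irgm2 included.

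Igtp (probe set 17249980), a regulator of endoplasmic reticulum membranes and lipid droplets, had 7.44 on fucose and 6.59 off fucose, intensities of 174.1 and 96.5. It was 1.80-fold lower, a difference of -0.85, and lies just outside the 2-fold limit, at rank 93. Among 1283 genes of like level, 7 had a difference as low, Igtp included. Its promoter is the one most like that of Irgm2, and a link between promoter and difference was not tested.

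Irgm1 (probe set 17262202), the regulator tied to mycobacterial defence and to autophagy, had 5.04 on fucose and 4.68 off fucose, intensities of 32.9 and 25.6. It was 1.29-fold lower, with a difference of -0.36, the smallest among the 5. It ranked 1541 from the lowest of 11090 genes, and 307 of the 1663 genes of like level had a difference as low. Such a difference was common at its level.

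The effectors with their own probe sets were both at least 2-fold lower. Gm12250 (probe set 17249977), an effector that also acts on bacteria in the cytosol, had 6.38 on fucose and 5.14 off fucose, intensities of 83.5 and 35.3. It was 2.37-fold lower, with a difference of -1.24, and ranked 28, next to Irgm2. Among 1458 genes of like level, 7 had a difference as low, Gm12250 included.

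Iigp1 (probe set 17350925), the best studied effector at the Toxoplasma vacuole, had 4.72 on fucose and 3.60 off fucose, intensities of 26.3 and 12.1. It was 2.17-fold lower, a difference of -1.12, and lies just inside the 2-fold limit. It ranked 39 from the lowest, and 15 of 2004 genes of like level had a difference as low, Iigp1 included. Its off-fucose value lay nearest to the expression limit among the 5, where RMA intensities understate differences.

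Tgtp1 and Tgtp2 gave no settled direction. Probe set 17262234, which names both, measured 4.62 on fucose against 4.40 off fucose (-0.22). Probe set 17262250, which also names both, measured 2.98 on fucose against 4.52 off fucose (1.54), or 2.90-fold higher. These probe sets name the same pair of genes and disagree in direction, and what each measures was not tested. The -0.22 of the brighter one turned positive when differences were centred on the T cell list, described below.

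**Figure D2:**
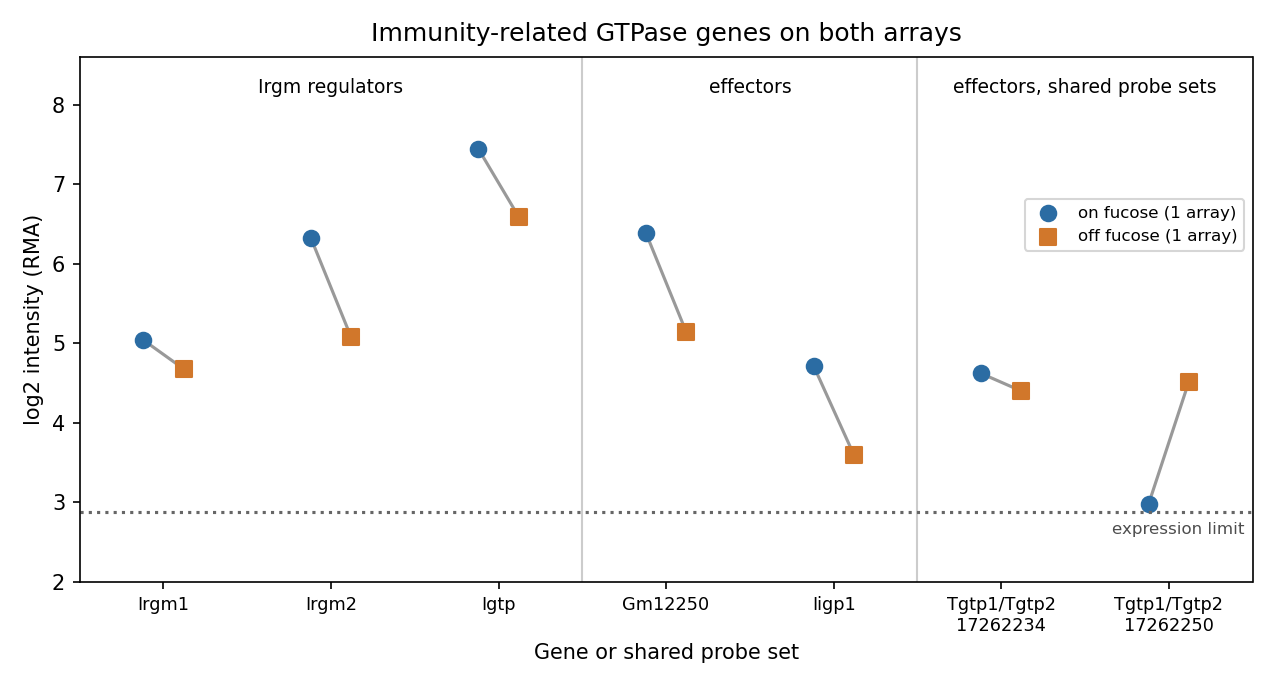
Log2 RMA intensity (vertical axis) of the 5 Irg genes with their own probe set and of the 2 probe sets shared by Tgtp1 and Tgtp2, on the on-fucose array (circles) and the off-fucose array (squares), with 1 array each and no error bars. All 5 genes slope down, Irgm1 the least, whereas the shared probe set 17262250 slopes up from 2.98 to 4.52.

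**Figure D3:**
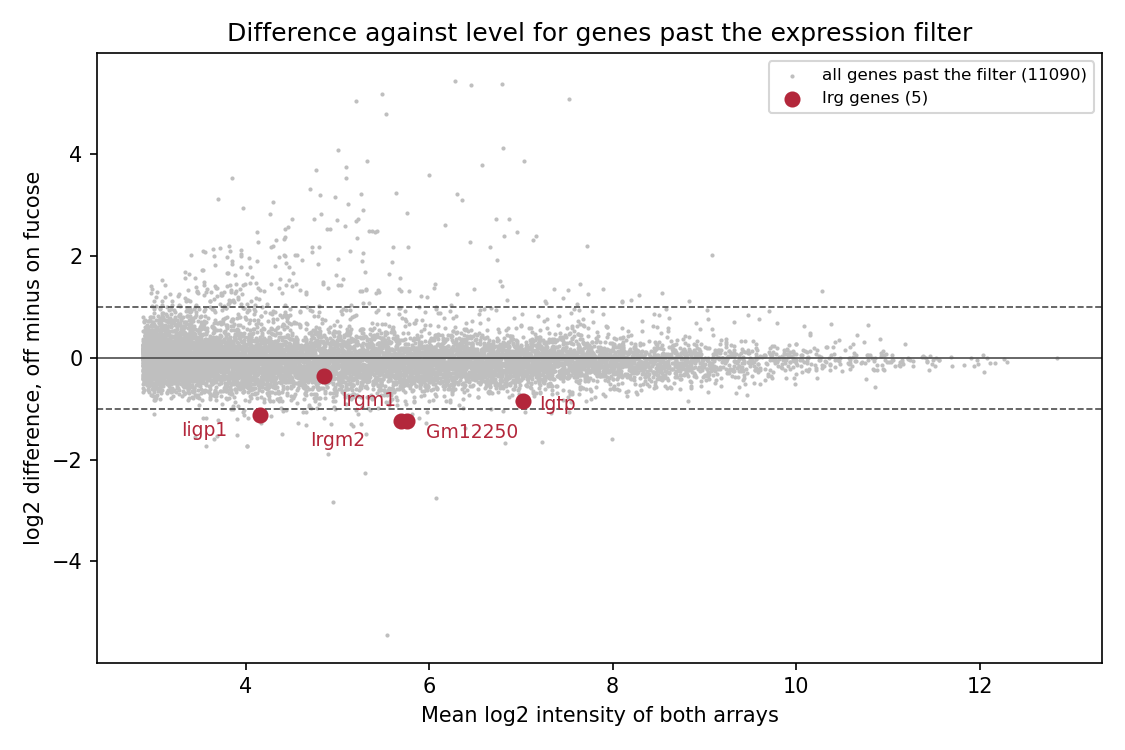
Log2 difference (off less on fucose) against the mean log2 intensity for the 11090 genes past the filter (grey) and the 5 Irg genes (red), with dashed lines at 2-fold. Irgm2, Gm12250 and Iigp1 lie below the lower dashed line, Igtp above it at -0.85, and Irgm1 within the body of genes at -0.36.

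The genes lie in groups on the chromosomes. Gm12250, Igtp and Irgm2 follow each other on chromosome 11 with no protein-coding gene between them in the RefSeq table. Of the 10 protein-coding genes on each side, 11 in all passed the filter, with a median difference of -0.04 and a range from -0.43 in Zfp692 to 0.34 in Sh3bp5l. None of these neighbours was 1.5-fold lower, a count near the 4.27% of all genes. Irgm1 and the Tgtp genes lie in another group on chromosome 11, and the 5 flanking genes of that group past the filter ran from -0.11 to 0.38.

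Among other GTPases related to the family, 15 symbols were listed, 8 had a probe set of their own and 3 passed the filter. These 3 had a median difference of -0.59, or -0.34 with T cell centring. Without centring all 3 were below 0, beside 56.5% of all genes. 9930111J21Rik2 (Irgb5 in RefSeq) measured 9.38 on fucose against 8.71 off fucose (-0.67). Gm12185 (Irgb2b1) had 4.06 and 3.47, a difference of -0.59. Both lie between Irgm1 and Tgtp2 on chromosome 11, and both were 1.5-fold lower, beside 4.27% of all genes. With T cell centring neither was, at -0.43 and -0.34. Irgq, a family member that lacks GTPase function, had 3.39 and 3.23, a difference of -0.16 that turned positive with T cell centring. The other 5 were too dim to pass the filter, with negative differences in Irgc1 (-0.28), Gm4951 (-0.37) and Gm4841 (-0.24, which turned positive with T cell centring) and positive ones in Gm5431 (0.15) and F830016B08Rik (0.20).

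Some relatives were only on probe sets that name several genes. Ifi47 (Irgd), an effector of the family, shares probe set 17248911 with the olfactory receptor gene Olfr56, with 4.65 on fucose and 4.20 off fucose. Probe set 17262224, which names 9930111J21Rik1, 9930111J21Rik2 and the proteasome activator gene Psme2, had 7.80 and 6.63, a difference of -1.18. Which of the named genes these values belong to cannot be told apart.

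The guanylate-binding proteins are the other large family of interferon-gamma-induced GTPases and act with IRG proteins at vacuoles. Of 7 Gbp genes past the filter, 6 had lower values off fucose, 5 were at least 1.5-fold and 2 at least 2-fold lower, and the median was -0.64. The shares of all genes were 56.5%, 4.27% and 0.514%. These shares are without T cell centring. With it the Gbp median was -0.40, and 2 Gbp genes were at least 1.5-fold and 1 at least 2-fold lower. Of all 11090 genes past the filter, 27 were then at least 2-fold lower. Gbp9 had 7.65 on fucose and 5.99 off fucose (-1.66), Gbp10 7.87 and 6.78 (-1.09), and Gbp8 4.20 and 3.38 (-0.82). Gbp3 was the exception, at 3.67 on fucose and 4.0 off fucose. The medians of the Irg genes (-1.12) and the Gbp genes come from the same pair of arrays, and their difference was not tested.

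Of 12 measured genes of interferon-gamma signalling, 8 had lower and 4 higher values off fucose, and none was 1.5-fold lower. The shares of all genes lower and at least 1.5-fold lower were 56.5% and 4.27%. The median of the list was -0.19. With T cell centring 4 were below 0 and the median turned to 0.06. Ifng, the cytokine itself, measured 3.01 on fucose against 3.75 off fucose (0.74), near the lower end of the arrays. Its receptor chain genes Ifngr1 and Ifngr2 had differences of 0.50 and 0.09.

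The receptor's kinases had -0.17 in Jak1, which turned positive with T cell centring, and -0.27 in Jak2. Among the transcription factors, Irf1, which induces IRG genes, went from 6.16 to 5.82 (-0.34). Irf2 and Irf9 had -0.56 each. Irf8, a factor of cDC1 and of other myeloid cells, had 4.18 and 6.68 (2.50), and the other probe set of Irf8 differed by 0.21. The feedback inhibitor genes Socs1, Socs3 and Ptpn2 had -0.18, -0.19 and -0.19, and each turned positive with T cell centring.

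The machinery that loads IRG proteins onto vacuoles, the autophagy conjugation proteins, had a median of -0.0089 over 10 genes. Of these, 5 were below 0, beside 56.5% of all genes, and the median was 0.23 with T cell centring. Gabarapl1 had 3.19 on fucose and 4.49 off fucose (1.29), Atg16l1 -0.26 and Atg12 0.25. The conjugating enzyme gene Atg3 and its partner Atg5 had 0.0030 and -0.02. The list of vacuole ubiquitin and adaptor genes had a median of 0.01 over 7 genes, with the ubiquitin ligase gene Trim21 at -0.52, the autophagy receptor gene Nbr1 at -0.56 and Tax1bp1, another such receptor, at 0.30. No gene of either list was 1.5-fold lower, beside 4.27% of all genes.

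Other genes induced by interferon-gamma had a median of -0.24 over 10 genes past the filter, 9 of them below 0 and 2 at least 1.5-fold lower. Over all genes past the filter the shares were 56.5% and 4.27%. With T cell centring 4 were below 0, none was 1.5-fold lower and the median was 0.0024. Cd274, which encodes PD-L1, had 5.04 on fucose and 4.23 off fucose (-0.81), and Nlrc5, the MHC class I transactivator gene, 7.0 and 6.31 (-0.68). Ciita, its class II counterpart, had 3.85 and 4.22 (0.37). The immunoproteasome gene Psmb8 had 8.89 and 8.88.

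The type I interferon-stimulated list had a median of -0.44 over 17 genes, 16 of them below 0, 4 at least 1.5-fold lower and none 2-fold lower. Over all genes past the filter the shares were 56.5%, 4.27% and 0.514%. Stat2, a signal transducer of type I interferon, had 6.54 on fucose and 5.80 off fucose, the RNA sensor gene Ddx58 7.27 and 6.53, and the oligoadenylate synthetase gene Oas3 5.07 and 4.36. With T cell centring the median was -0.20, 12 of the 17 were below 0 and none was 1.5-fold lower. All the lists were chosen with earlier results of these data known.

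**Figure D4:**
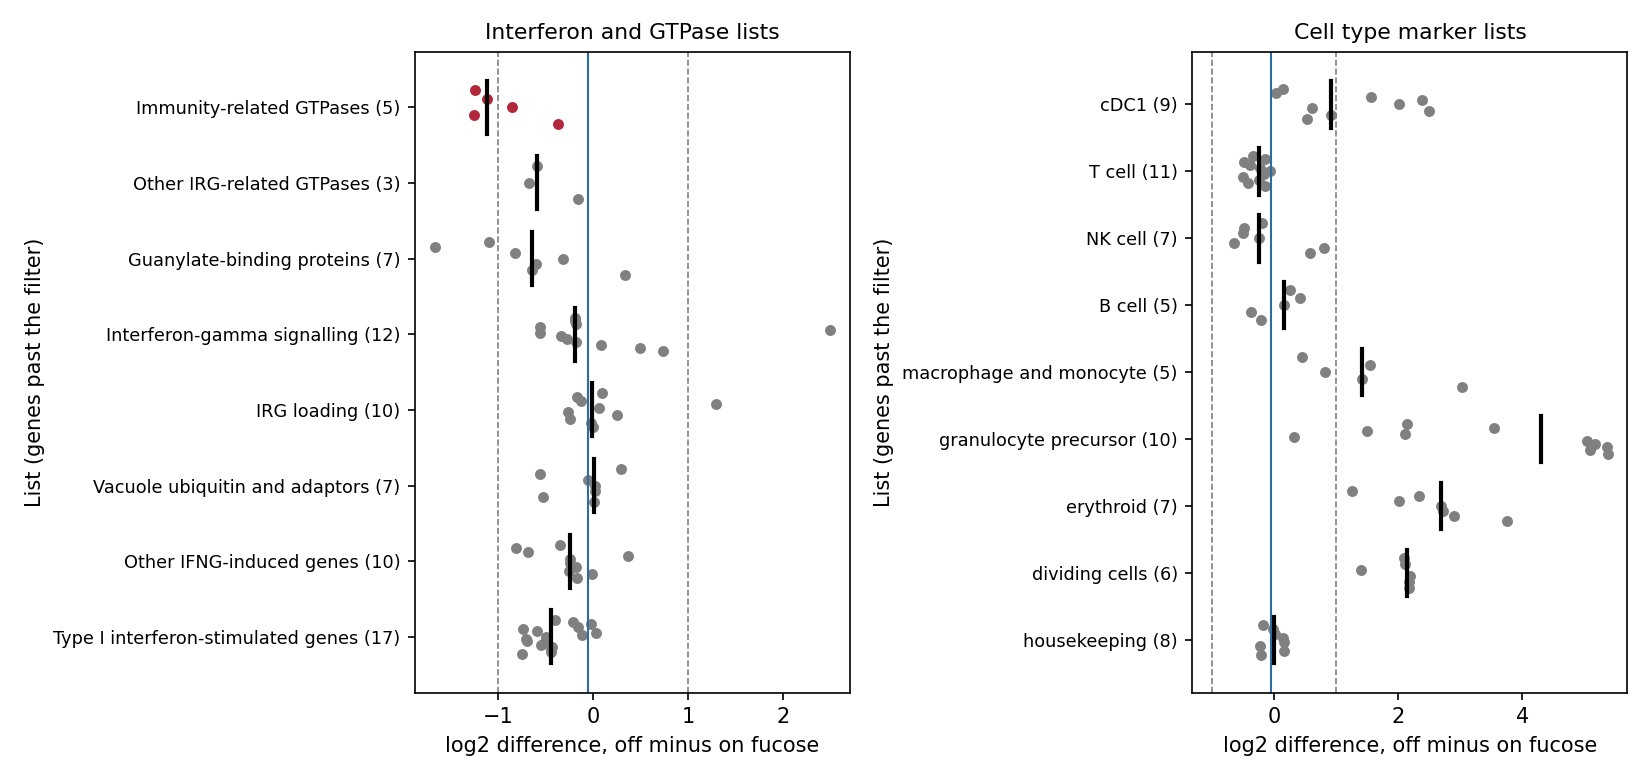
Log2 difference, off less on fucose (horizontal axis), of the genes past the filter in each list, with 1 point per gene, the list median as a black bar, the median of all genes (-0.05) as a blue line and dashed lines at 2-fold. The Irg genes (red, median -1.12) lie left of the blue line, the loading and adaptor lists lie around it, and the granulocyte precursor and erythroid markers lie far to the right.

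Markers of other cell types differed between the arrays together with these values, and sums are over all measured genes of a list. Of the 11090 genes past the filter, 4676 were higher and 6269 (56.5%) lower off fucose. Granulocyte precursor markers were higher off fucose in 10 of 10 genes, and their summed intensity was 109.5 on fucose and 2979 off fucose. Elane had log2 intensities of 4.11 and 9.48, Mpo 4.98 and 10.07, and Ctsg 3.77 and 9.14. Erythroid markers were higher in 7 of 7 genes past the filter, with sums of 79.9 and 514.3, and markers of dividing cells in 6 of 6, with 119.5 and 508.1. Markers of cDC1 were higher in 9 of 9, with 168.9 and 609.9, but unevenly. Naaa was the brightest of these on both arrays, at 5.97 and 8.36, and Irf8 differed by 2.50. Itgax and Zbtb46 differed by only 0.03 and 0.14.

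Macrophage and monocyte markers were higher in 5 of 5 genes past the filter, with sums of 1460 and 2110, whereas B cell markers had 73.3 and 70.8 and NK cell markers 1362 and 1125. Most of the macrophage and monocyte sums came from Ly6c2, at 10.44 and 10.89, and the median difference of that list was 1.42. In the NK cell list Nkg7 was brightest, at 9.95 and 9.75, and of 7 genes past the filter 5 were lower and 2 higher. Of all genes past the filter 56.5% were lower, and nothing is read from the NK cell count. T cell markers were lower in 11 of 11 genes, by at most 0.50 on the log2 scale, with sums of 12804 and 10503, a ratio of 0.820 off over on fucose. The 5 Irg genes had sums of 396.8 and 203.2, a ratio of 0.512. RMA gives every probe set a positive value, so no marker is at 0, and the part of these cells in the Irg values was not tested. In such bulk RNA, fewer cells of a type and less RNA per cell cannot be told apart.

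With differences centred on the median of the T cell list (-0.24), all 5 Irg genes were still lower off fucose. Their differences were then -1.004 in Irgm2, -0.9997 in Gm12250, -0.88 in Iigp1, -0.61 in Igtp and -0.12 in Irgm1. Only Irgm2 remained at least 2-fold lower, with Gm12250 just short of it. The same step brought the median over all filtered genes to 0.20. It changed the count of genes at least 2-fold higher from 263 (2.37%) to 427 and that of genes at least 2-fold lower from 57 to 27. The shares of all genes given beside the lists are without this centring and do not apply to the centred list counts. Centred shares of all genes below 0 and at 1.5-fold are not given here, so nothing is read from those counts.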

How the data were processed

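The authors deposited a linear intensity for each of 41345 probe sets on each array. The submitters' processing notes name RMA, and its version, its settings and the build are not given in the sources used here. Since values reached 9512, they were taken as RMA values converted to the linear scale and were put on the log2 scale again. Gene names came from the platform annotation, in which 23521 probe sets had 1 symbol, 1814 several, and 16010 were not listed and stay unnamed here. The probe set with the highest mean stood for a gene. All 7 Irg genes matched RefSeq by Entrez ID and symbol.

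With 1 array per group there was no test. Each difference is off minus on fucose on the log2 scale. Members and lists (7 pathway and 9 cell type lists) were chosen with earlier results of these data known. The text names all Irg genes, up to 3 genes per pathway list with the largest differences, all genes of interferon-gamma signalling, and for cell type lists up to 3 bright markers; Xcr1, Itgax, Zbtb46, Xist, Uty and further list genes given for their role were named outside this rule. The neighbouring genes, the motifs and the comparison of promoters were chosen after the values were seen. Scripts ran in Python 3.11.15 with pandas 2.3.3, statsmodels 0.14.6 and Biopython 1.88 and were tested on simulated data.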

Additional observations from a re-analysis of the deposited data

How the results depend on the processing

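No paired analysis was possible because there was 1 array per group, so none could be left out either. Each of the 5 Irg differences stayed below 0 under quantile normalisation, loess (span 0.3), median centring and T cell centring. The mean of probe sets and the counting of shared probe sets could not change them, since each gene has 1 probe set of its own. With the main values included, Irgm1 ran from -0.36 to -0.12 and Irgm2 from -1.25 to -1.004. The median difference of the Irg genes ran from -1.12 to -0.85, the last with Tgtp1 and Tgtp2 counted through their brighter shared probe set. The 3 genes at least 2-fold lower became 1 with T cell centring, 0 at 3-fold, 4 at 1.5-fold and 2 at a mean of at least 5, where Iigp1 drops out. The genes at least 2-fold higher and lower numbered 427 and 27 with T cell centring, 640 and 473 at 1.5-fold, 118 and 12 at 3-fold, and 97 and 25 over genes with a mean of at least 5, a filter added after the data were seen. At stricter limits fewer genes can pass. With no filter the median was -0.26 for other IRG-related GTPases and 0.81 for macrophages and monocytes. At the 67th percentile it was 1.78 for cDC1, -0.21 for B cells, which turned from 0.17, and 5.09 for granulocyte precursors. The mean was 0.11 for interferon-gamma signalling, of opposite sign to its median, and 3.57 for granulocyte precursors. The cause of these shifts was not tested. Low signal limits dim genes such as Iigp1.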

Other observations

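Genes other than the Irg genes followed here can hold the same promoter motifs, and a link between motif and difference was not tested. Outside the Irg genes, 328 genes past the filter had an ISRE core in a RefSeq promoter, and their median difference was -0.03, beside -0.05 over the 8753 such genes with any promoter entry. At least 1.5-fold lower values were found for 19 of the 328 (5.79%) and higher values for 26 (7.93%), against 4.11% and 5.66%. At least 2-fold lower were 3 of the 328 (0.915%), against 0.446% of the genes with any promoter entry. They were the apolipoprotein L genes Apol7c (-2.82) and Apol7e (-1.01) and Ifi214 (-1.30), named after their values were seen.

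Both motifs were found in 44 of these genes, with a median of -0.01. Of the 44, 5 (11.4%) were at least 1.5-fold lower, beside 4.11% of the 8753 genes with any promoter entry. They were Rab19 (-0.62), Parp11 (-0.61), Gm12216 (-0.61), Gbp5 (-0.59) and Gm12185 (-0.59). At least 1.5-fold higher were 3 (6.82%), beside 5.66%, namely Ifitm3 (3.20), Usp17ld (1.86) and Apol11b (1.35). These genes too were named after their values were seen. Gbp5 and Gm12185 are GTPase genes of the interferon response, and Ifitm3 is an antiviral membrane protein gene. A match in this window says only that the letters are there.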
